A study of Penicillium oxalicum with 18 samples.

Results

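Wild-type mycelium of Penicillium oxalicum strain 114-2, a filamentous fungus used to produce cellulases, was compared after growth on N-acetylglucosamine (GlcNAc) and after growth on glucose. The genes described are those with at least 1 FPKM in at least 3 of the 6 wild-type libraries of these media. FPKM is a transcript level, the fragments of a gene corrected for gene length and for library size. This rule took 7932 of the 9261 identifiers in the table, with 7906 locus tags of the PDE_ series and 26 loci named XLOC_ that have no such tag. The other 1329 identifiers fell short of it. The rule is close to its edge for 289 genes that reached 1 FPKM in exactly 3 libraries, and 171 genes that reached it in exactly 2 were left out. A gene expressed in a single medium could enter through that medium: 91 members had at least 1 FPKM in all 3 GlcNAc libraries and in no glucose library, and 143 showed the reverse.

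Groups of 3 libraries are used below. They are wild type on 2% GlcNAc, the nag3 deletion strain on 2% GlcNAc, the nag3 deletion strain on 2% glucose, wild type on 1% bran with 1% microcrystalline cellulose (called bran-cellulose), and wild type on 2% glucose. The growth protocol gives 24 h at 30 °C in medium with 2% glucose, then 24 h in the second medium. GlcNAc medium appears in the sample labels but not in that protocol. If the preculture applied to it too, the GlcNAc mycelium had also been fed glucose on the first day. What nag3 encodes is not in the labels, nor is whether the 3 replicates of a group are separate cultures. The p-values therefore reflect the variation among these libraries, part or all of which may be technical.

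GlcNAc is the sugar unit of chitin, the polymer that stiffens fungal cell walls, and fungi release it when they remodel or digest their own walls. They take it up, phosphorylate it and convert it in further steps to fructose 6-phosphate. That product enters glycolysis, so that GlcNAc can feed a fungus as glucose does. Glucose itself is a repressing sugar: through the zinc finger protein CreA it keeps genes for the breakdown of cellulose, xylan and starch low. In Aspergillus and its relatives, poor or exhausted food is also followed by conidiation, the making of asexual spores, which the transcription factor BrlA starts. Names are given below to 13 locus tags (cellulases, glycosidases, their regulators and brlA). The deposited table pairs no identifier with a name, and these were recalled from the literature on this strain. For the other identifiers no name or function is given.

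The 3 GlcNAc libraries were alike and the 3 glucose libraries less so. Across the members, Pearson's r of log2(FPKM + 1) lay between 0.982 and 0.986 for pairs of GlcNAc libraries. It was 0.977 for glucose replicates 1 and 2, 0.967 for replicates 2 and 3 and 0.95 for replicates 1 and 3. Glucose replicate 3 was the nearest to GlcNAc and replicate 1 the farthest: the r of replicate 3 with the GlcNAc libraries was 0.86 to 0.866, against 0.81 to 0.818 for replicate 2 and 0.775 to 0.784 for replicate 1. Replicate 3 had 394 members over 2-fold above the mean of the other 2 glucose libraries and 140 over 2-fold below it. Replicate 1 had 105 above and 315 below, and replicate 2 had 71 above and 99 below. The 3 GlcNAc libraries had 45 to 84 above and 51 to 78 below. Both ends of the glucose order thus deviated. Results that rest on glucose replicate 3 are also given without it. Summed FPKM was 1083828, 1066701 and 1074476 in the GlcNAc libraries and 955623, 973466 and 969974 in the glucose libraries, and 894 to 943 and 854 to 918 identifiers were listed at 0. Read depth is not given. Among low values, the most frequent log2 ratio of a library to GlcNAc replicate 1 lay between 0.00 and 0.10. It rested on 13 to 42 genes per library, of 126 to 207 compared. FPKM is already corrected for library size, so equal depth was not shown.

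A large part of the members differed between the sugars. Under GlcNAc 941 members (11.9%) were called higher and 1207 (15.2%) were called lower than under glucose. Of the 91 members that entered through GlcNAc alone, 76 were called higher. Of the 143 that entered through glucose alone, 117 were called lower. Such calls follow in part from the rule for members. Calls required both an adjusted p below 0.05 and a log2 difference of 1 or more in size, by limma on log2(FPKM + 1). Over all 8390 genes tested, 11.4% were called higher and 14.7% lower, and the members, which are most of the tested genes, had nearly the same shares. The remaining 5784 members were not called, and 5415 members had an unadjusted p under 0.05. The median log2 difference over all members was -0.02. Fewer transcripts per cell and fewer cells of a kind cannot be told apart in such bulk RNA. Without glucose replicate 3 the counts were 1082 higher and 1260 lower, and without glucose replicate 1 they were 817 and 1139.

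The called changes were mostly moderate in size. Genes called higher had a median log2 difference of 1.60, with quartiles of 1.24 and 2.43 and a highest value of 6.98. Genes called lower had a median of -1.66, with quartiles of -2.33 and -1.25 and an extreme of -9.42. A log2 difference of at least 3 in size was reached by 144 genes called higher and 163 called lower, and one of at least 5 by 22 in each direction. The GlcNAc and glucose libraries did not overlap in 922 of the 941 genes called higher and in 1199 of the 1207 called lower. The calls were made on the same libraries, so this separation largely follows from them.

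**Figure D1:**
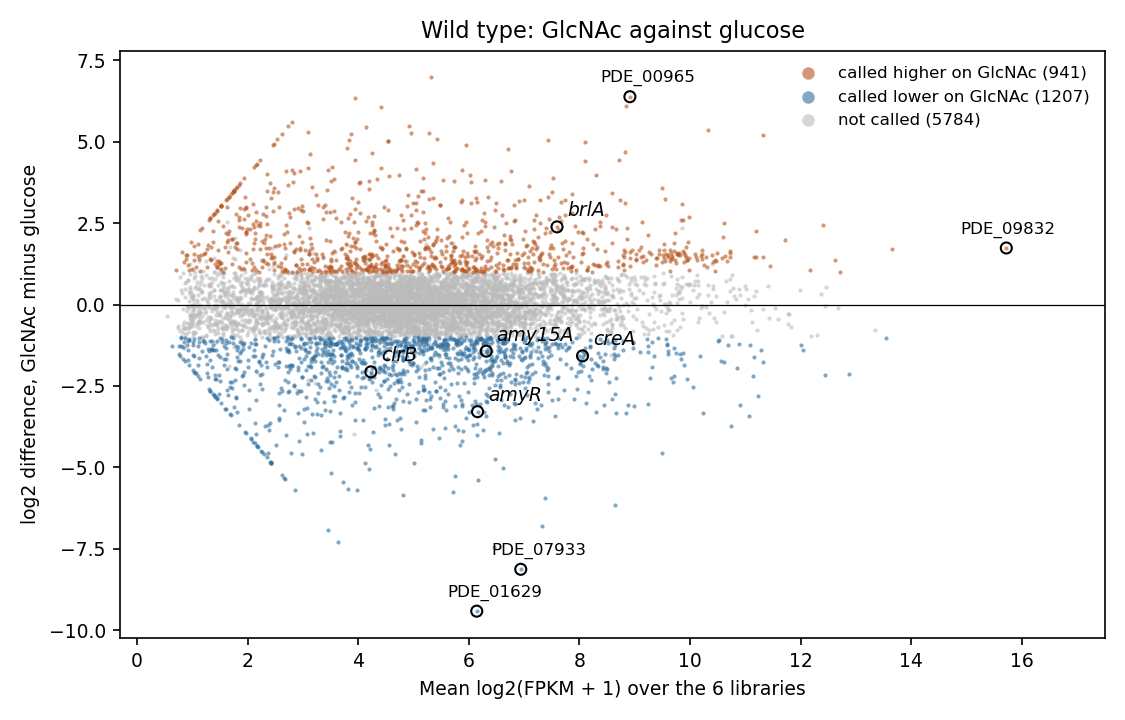
Each point is one of the 7932 members, with its mean log2(FPKM + 1) over the 6 wild-type libraries on the x axis and its log2 difference, GlcNAc minus glucose, on the y axis; orange points were called higher, blue points lower and grey points were not called. Of the 5 named genes circled, brlA lies above 0 at 2.39 and the other 4 lie below it, and a dense band of called genes sits near 1.5 at mean levels between 9 and 11.

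Calls depended on how abundant the transcript was. Among the 171 members with a mean of at least 1000 FPKM over the 6 libraries, 66 (38.6%) were called higher on GlcNAc and 36 (21.1%) lower. Between 100 and 1000 FPKM, 248 of 1376 (18%) were higher and 286 (20.8%) lower. Between 10 and 100 FPKM, 412 of 4728 (8.71%) were higher and 635 (13.4%) lower. In the most abundant class calls on the higher side were the more frequent, and in the classes below it those on the lower side were. Under 10 FPKM, where adding 1 FPKM shrinks differences, 215 of 1657 (13%) were higher and 250 (15.1%) lower.

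A band of abundant genes called higher moved by a like amount. Of the 241 members with a mean log2(FPKM + 1) from 9 to 11, 86 (35.7%) were called higher and 38 lower. The quartiles of the log2 difference in those 86 were 1.39 and 1.66 around a median of 1.52, a range much narrower than that of all genes called higher. Their median level was 1630, 1490 and 1580 FPKM in the GlcNAc libraries and 373, 511 and 663 FPKM in the glucose libraries. Without glucose replicate 3 the median log2 difference of the 86 was 1.69, with quartiles of 1.56 and 1.92. In 77 of the 86 glucose replicate 1 was the lowest and replicate 3 the highest, so this omission mostly enlarges the rise. They held 13.9% to 14.3% of the summed FPKM on GlcNAc and 3.73% to 6.49% on glucose. In wild type on bran-cellulose their median level was 1200 to 1220 FPKM. In the deletion strain 72 of the 86 were also called higher on GlcNAc than on glucose, and 6 lower. Over all tested genes 15.3% were called in each direction there. The bounds of this band were chosen after the values had been seen, so it carries no test.

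The named regulators of polysaccharide-degrading enzymes were lower on GlcNAc than on glucose. Of the 4, 3 fell and none rose, with a median log2 difference of -1.82. Over all tested genes 14.7% were called lower and 11.4% higher, and 4 picked genes give no test against these shares. The activator of amylase genes, amyR (PDE_03964), had 20.9, 22.4 and 22.3 FPKM on GlcNAc and 202, 237 and 229 FPKM on glucose. All glucose libraries were far above all GlcNAc libraries. Its log2 difference was -3.29 (SE 0.20, adjusted p = 3.66e-09). The activator of cellulase genes, clrB (PDE_05999), had 8.46, 7.62 and 8.44 FPKM on GlcNAc and 43.1, 43.6 and 27.7 FPKM on glucose. The groups did not overlap, and the lowest glucose value was that of replicate 3. It fell by 2.07 on the log2 scale (SE 0.15, adjusted p = 2.08e-08), and without glucose replicate 3 the difference was -2.28. Over all libraries left out in turn the difference lay between -2.28 and -1.96.

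The repressor gene creA (PDE_03168) also fell. It had 166, 145 and 149 FPKM on GlcNAc, against 468, 477 and 431 FPKM on glucose, with no overlap and tight replicates in both media. The log2 difference was -1.57 (SE 0.17, adjusted p = 1.96e-06). The xylanase activator xlnR (PDE_07674) was lower in every GlcNAc library, with 11.8, 12.0 and 10.2 FPKM, than in any glucose library, with 17.6, 20.8 and 22.0 FPKM. Its log2 difference of -0.77 (adjusted p = 0.000183) did not reach the fold threshold and it was not called.

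The cellulase genes, which such activators switch on when cellulose is present, were near their floor on both sugars. None of the 4 was called, and their levels on GlcNAc ran from 1.85 to 6.68 FPKM. With 11.4% of all tested genes called higher and 14.7% lower, the absence of calls among 4 genes sets them apart from no others. The cellobiohydrolase gene cel7A-2 (PDE_07945) had 1.85, 2.78 and 2.82 FPKM on GlcNAc, 2.90, 4.05 and 2.68 FPKM on glucose, and 2277 ± 128 FPKM (SD, n = 3) on bran-cellulose. The sugar groups overlapped, and both were far below bran-cellulose. The second cellobiohydrolase gene, cel6A (PDE_07124), had 5.83, 4.75 and 3.44 FPKM on GlcNAc and 11.1, 9.05 and 8.24 FPKM on glucose. It was lower in every GlcNAc library, but its log2 difference of -0.90 (SE 0.17, adjusted p = 0.000261) fell short of the fold threshold. It was called with a pseudocount of 0.1 FPKM (-1.02) and without GlcNAc replicate 1 (-1.04). The endoglucanase genes cel7B (PDE_07929) and cel5B (PDE_09226) had log2 differences of 0.10 and -0.17, with overlapping groups. The xylanase gene xyn10A (PDE_08094), at 1.82 to 2.59 FPKM on GlcNAc and 2.71 to 2.87 FPKM on glucose, was not called either (-0.23, adjusted p = 0.115).

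Genes for enzymes that finish the release of glucose were expressed on both sugars, and both called members were lower on GlcNAc. The glucoamylase gene amy15A (PDE_01201), whose product cuts glucose from starch, had 47.0, 47.2 and 48.3 FPKM on GlcNAc and 98.5, 111 and 200 FPKM on glucose. The GlcNAc values were nearly equal, and glucose replicate 3 was the highest. The log2 difference was -1.43 (SE 0.22, adjusted p = 5.36e-05), and -1.12 without glucose replicate 3. The secreted beta-glucosidase gene bgl1 (PDE_02736), whose product splits cellobiose, had 113, 123 and 121 FPKM on GlcNAc and 244, 288 and 198 FPKM on glucose. It fell by 1.01 on the log2 scale (SE 0.11, adjusted p = 1.37e-06) and sits on the threshold: it was not called under median-ratio scaling (-0.99), under quantile normalization (-0.90), without GlcNAc replicate 1 (-0.97) or without glucose replicate 2 (-0.88). The other beta-glucosidase gene, bgl2 (PDE_00579), was higher in every GlcNAc library, with 11.4, 9.90 and 10.6 FPKM against 7.49, 7.28 and 8.37 FPKM on glucose. Its log2 difference of 0.42 (adjusted p = 0.0271) was below the fold threshold.

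Of the 13 named tags 1 was called higher and 5 lower, beside 11.4% and 14.7% of all genes tested. The tag called higher was brlA (PDE_00087), which starts conidiophore development. It had 469, 499 and 367 FPKM on GlcNAc, against 46.0, 83.9 and 150 FPKM on glucose. All GlcNAc libraries were above all glucose libraries, and the glucose libraries differed among themselves by over 3-fold. It rose by a log2 difference of 2.39 (SE 0.34, adjusted p = 2.18e-05), which was 2.81 without glucose replicate 3 and between 1.96 and 2.81 over all libraries left out in turn. The material is labelled as mycelium, and this developmental transcript was present in all 6 libraries. The glucose order of brlA, with replicate 1 lowest and replicate 3 highest, was shared by 559 (59.4%) of the genes called higher, by 73 (6.05%) of those called lower and by 2257 (28.5%) of all members. The opposite order was found in 37 (3.93%), 550 (45.6%) and 1787 (22.5%) of them. These libraries took part in the calls, so the shares are a description of how the glucose replicates vary.

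**Figure D2:**
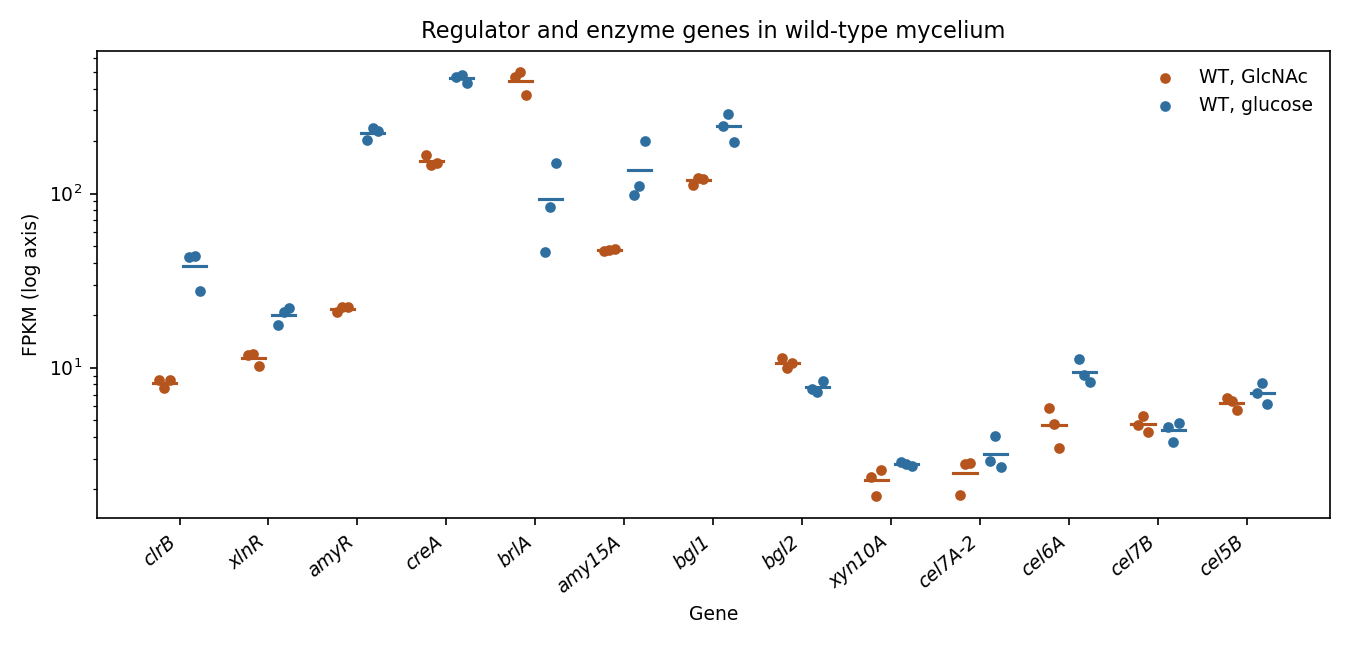
FPKM on a log axis of the 13 named genes in each wild-type library, GlcNAc in orange on the left and glucose in blue on the right of each gene; short lines are group means, n = 3. Points of the 2 media overlap for cel7A-2, cel7B and cel5B and are clear of each other for the other 10 genes, and the cellulase genes on the right stay between 1.85 and 11.1 FPKM in both.

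A group of 4 tags with near numbers rose with little spread between replicates. The identifier PDE_00965 had 4197, 4532 and 4498 FPKM on GlcNAc, against 53.8, 50.2 and 51.3 FPKM on glucose. Replicates within a medium were nearly equal, and the log2 difference of 6.39 (SE 0.12, adjusted p = 2.75e-14) did not depend on glucose replicate 3 (6.38 without it). PDE_00969 had 3652, 4007 and 3801 FPKM on GlcNAc, against 52.9, 51.9 and 58.6 FPKM on glucose, a log2 difference of 6.11 (SE 0.13). PDE_00964 averaged 481 FPKM on GlcNAc and 37.8 FPKM on glucose (3.63), and PDE_00970 averaged 708 and 46.3 FPKM (3.90). Of the tags between them, PDE_00966 had a log2 difference of -0.36 and PDE_00968 one of -0.90, and neither was called. On bran-cellulose PDE_00965 averaged 50.7 FPKM and PDE_00969 averaged 65.0 FPKM. PDE_00964, PDE_00969 and PDE_00970 were singled out after their values had been seen.

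Other large changes rested on less even libraries. The greatest log2 difference among genes with at least 10 FPKM and no overlap was that of PDE_02342, at 6.98 (SE 0.97, adjusted p = 1.91e-05). It had 557, 470 and 342 FPKM on GlcNAc, while glucose replicates 1 and 2 were listed at 0 and replicate 3 had 43.9 FPKM. Without that library the difference was 8.81, and over all libraries left out in turn it lay between 6.06 and 8.81. The greatest fall was that of PDE_01629, with 1.51, 1.65 and 1.97 FPKM on GlcNAc and 1911, 1374 and 2402 FPKM on glucose. Its log2 difference was -9.42 (SE 0.55, adjusted p = 2.64e-09), and on bran-cellulose it was as low, at 1.20 ± 0.593 FPKM. PDE_07933 fell by 8.13 (SE 0.25, adjusted p = 5.9e-12), with 6.27, 4.79 and 8.35 FPKM on GlcNAc and 2068, 2132 and 1967 FPKM on glucose.

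Some genes were listed at 0 in every library of one medium. On the GlcNAc side, 20 members were at 0 on glucose while averaging 10.4 to 48.1 FPKM on GlcNAc, and 26 were at 0 on GlcNAc while averaging 11.3 to 168 FPKM on glucose. Highest on GlcNAc was PDE_01904, with 40.9, 59.6 and 43.8 FPKM, which was at 0 on bran-cellulose too. PDE_05908 followed with 31.7, 48.5 and 53.3 FPKM on GlcNAc, and on bran-cellulose it averaged 30.1 FPKM. On the other side, PDE_05900 was at 0 on GlcNAc and had 97.9, 265 and 141 FPKM on glucose, and PDE_04460 was at 0 on GlcNAc and had 146, 89.7 and 131 FPKM on glucose. Of the 20, 12 were also at 0 in all deletion-strain glucose libraries and 8 on wild-type bran-cellulose. Of the 26, 13 were also at 0 in all deletion-strain GlcNAc libraries and 7 on bran-cellulose. A mean of at least 10 FPKM in the deletion strain on GlcNAc was reached by 7 of the 20. On glucose 25 of the 26 reached that mean in the deletion strain. A listed 0 gives no fold change, and without read counts no upper limit.

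The gain in FPKM of a single gene was highest in PDE_09832. PDE_09832 had 106845, 101333 and 88597 FPKM on GlcNAc and 25580, 27562 and 36539 FPKM on glucose. It alone held 8.25% to 9.86% of the summed FPKM on GlcNAc and 2.68% to 3.77% on glucose. Its log2 difference was 1.74 (SE 0.20, adjusted p = 2.79e-06). The next tag in number, PDE_09831, was the second in FPKM gained, with 24566, 22637 and 22893 FPKM on GlcNAc and 6318, 6517 and 8648 FPKM on glucose (1.72, SE 0.17, adjusted p = 5.01e-07). The most FPKM was lost by PDE_09166 and PDE_07202. PDE_09166 had 3218, 3239 and 4412 FPKM on GlcNAc and 19825, 18659 and 10296 FPKM on glucose (-2.12, and -2.42 without glucose replicate 3). With each library left out in turn its difference lay between -2.42 and -1.95. PDE_07202 had 3133, 2472 and 2305 FPKM on GlcNAc and 11635, 13732 and 10131 FPKM on glucose (-2.17). Not every abundant gene changed. PDE_09900 had 5952, 6862 and 6329 FPKM on GlcNAc and 6749, 6978 and 6695 FPKM on glucose, a log2 difference of -0.10 (adjusted p = 0.46). PDE_08540 averaged 8009 ± 242 FPKM on GlcNAc and 13856 ± 2847 FPKM on glucose, but its log2 difference of -0.77 was below the fold threshold.

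The share of the transcript pool held by the highest genes was larger on GlcNAc, and this rested on PDE_09832. The 10 highest genes of each library held 19.4%, 19.1% and 18% of its summed FPKM on GlcNAc, against 13.6%, 13.5% and 12.4% on glucose. For the 100 highest the shares were 42.2%, 41.7% and 41.3% on GlcNAc and 39.6%, 38.8% and 36.9% on glucose. In both measures all GlcNAc libraries were above all glucose libraries. With PDE_09832 left out, the 10 highest held 11.2%, 11.3% and 11.4% on GlcNAc and 11.9%, 11.7% and 9.71% on glucose, and the 100 highest held 36.0%, 35.7% and 36.2% on GlcNAc and 38.1%, 37.2% and 34.5% on glucose. The groups then overlapped in both, and glucose replicate 3 was the lowest library. The genes called higher held 45.1%, 44.8% and 43.9% of the summed FPKM on GlcNAc, and 11.7%, 13.7% and 18.5% on glucose. Those called lower held 7.64%, 7.75% and 8.25% on GlcNAc, and 36.5%, 34.7% and 27.8% on glucose. These last shares follow from the calls, and they show glucose replicate 3 nearest to GlcNAc on both counts.

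**Figure D3:**
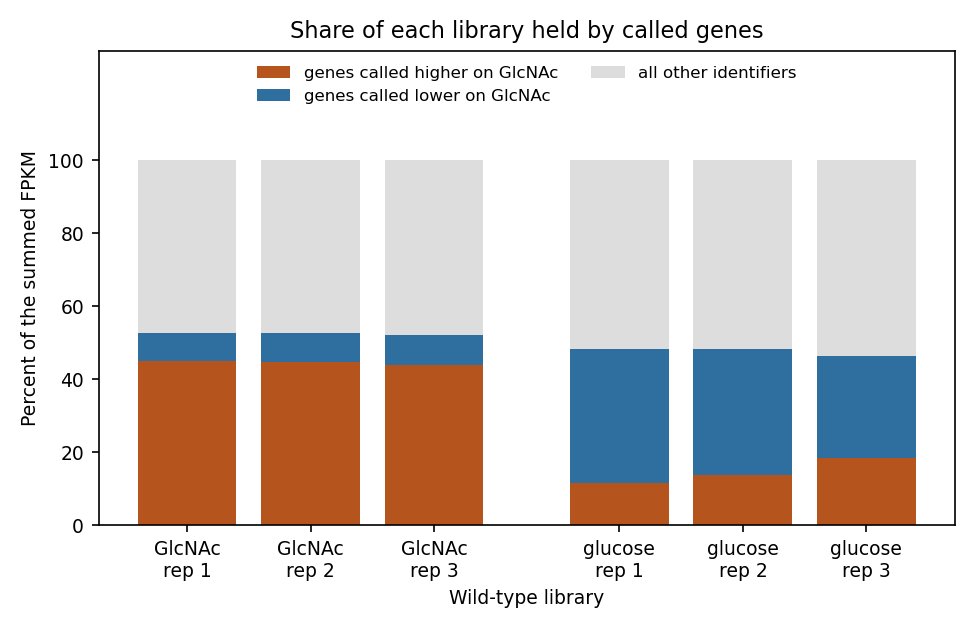
Percent of each wild-type library's summed FPKM held by genes called higher on GlcNAc (orange), by genes called lower (blue) and by all other identifiers (grey), with 1 bar per library. The orange part is 43.9% to 45.1% in the GlcNAc libraries and 11.7% to 18.5% in the glucose libraries, with the highest glucose value in replicate 3.

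Called genes tended to carry neighbouring tag numbers. Among PDE_ members called higher, 295 of 935 (31.6%) had a tag one number up or down that was also called higher, and this held for 16.0% of the other PDE_ members, while 11.8% of all PDE_ members were called higher. Among those called lower, 430 of 1206 (35.7%) had such a neighbour, against 19.0% of the other PDE_ members, with 15.3% called lower. Without glucose replicate 3 the shares were 34.9% and 36.8%, while 13.6% of all PDE_ members were then called higher and 15.9% lower. There were 28 runs of at least 3 consecutive tags called higher, with 127 genes, and 50 runs called lower, with 170 genes. Runs of at least 5 numbered 6 and 4. Only the numbers of the tags are used here, and no position in the genome is given.

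The longest run had 23 consecutive tags, PDE_00789 to PDE_00811, all called higher on GlcNAc. Its first tag, PDE_00789, had 179, 188 and 202 FPKM on GlcNAc and 13.9, 34.4 and 65.3 FPKM on glucose (log2 difference 2.54, SE 0.34, adjusted p = 1.12e-05). The difference was 3.05 without glucose replicate 3 and between 1.97 and 3.05 over all libraries left out in turn. Its last, PDE_00811, had 326, 303 and 331 FPKM on GlcNAc and 24.6, 74.3 and 140 FPKM on glucose (2.31, SE 0.39, adjusted p = 0.000114). The difference was 2.87 without glucose replicate 3 and between 1.64 and 2.87 over all libraries left out in turn. The log2 differences of the 23 ran from 2.03 to 3.97 with a median of 2.70 (3.28 without glucose replicate 3), and in all 23 the GlcNAc libraries lay above the glucose libraries. The median level of the run was 339, 375 and 368 FPKM in the GlcNAc libraries and 17.8, 52.4 and 102 FPKM in the glucose libraries. In all 23 tags glucose replicate 1 was the lowest and replicate 3 the highest, the order seen in brlA. Leaving out glucose replicate 3 could therefore only enlarge these rises. All 23 were still called without glucose replicate 3, without glucose replicate 1, and under the other scalings and pseudocount tried. Below its first tag, PDE_00788 had a log2 difference of -0.64 and was not called. Above its last, PDE_00812 is not a member.

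**Figure D4:**
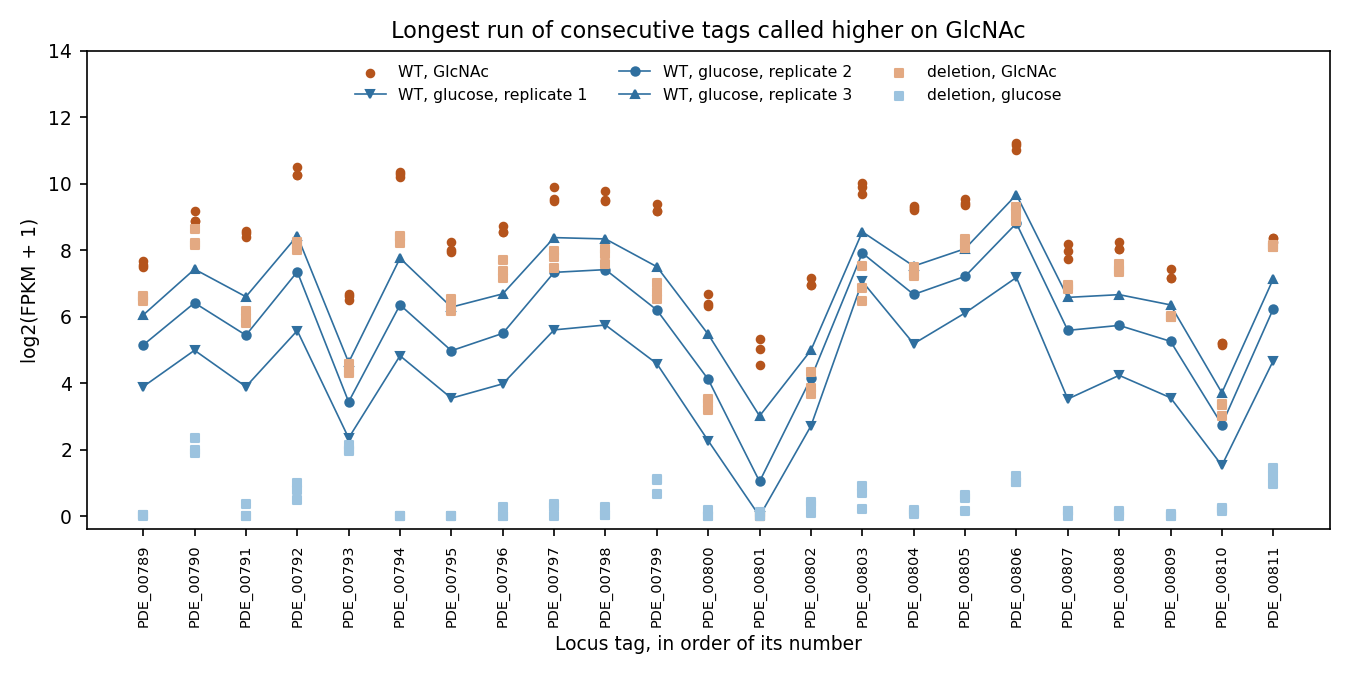
log2(FPKM + 1) of the 23 consecutive tags called higher, in order of tag number, with wild-type GlcNAc libraries as dark orange circles, wild-type glucose libraries as blue lines with a marker for each replicate, and the deletion strain as pale squares. The blue lines keep the same order throughout, and the deletion strain's glucose libraries lie near 0 in most tags.

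The other runs called higher fell into more than one pattern. PDE_10001 to PDE_10010, with 10 tags and a median log2 difference of 3.03, had library medians of 257, 263 and 271 FPKM on GlcNAc and 15.2, 33.0 and 69.7 FPKM on glucose, and was highest in glucose replicate 3 in all 10 tags. PDE_01064 to PDE_01071, with 8 tags, had a median of 2.85. On bran-cellulose the median level of these 3 runs was 253, 180 and 120 FPKM. PDE_03412 to PDE_03417, with 6 tags and a median log2 difference of 3.32, behaved otherwise, with library medians of 24.9, 28.5 and 29.8 FPKM on GlcNAc and 1.04, 1.67 and 1.64 FPKM on glucose. On bran-cellulose its median level was 0.552 FPKM. The longest run called lower was PDE_05450 to PDE_05455, with 6 tags and a median of -2.35. Of the 6, only 5 were called without glucose replicate 1 or under quantile normalization. The same count was called with the compared libraries alone and with a pseudocount of 0.1 FPKM. In 5 tags of this run the GlcNAc and glucose libraries did not overlap. Its first tag, PDE_05450, had 13.3, 13.6 and 17.7 FPKM on GlcNAc and 165, 156 and 122 FPKM on glucose (-3.23, SE 0.15, adjusted p = 3e-10), and its last, PDE_05455, had 87.4, 89.1 and 93.4 FPKM on GlcNAc and 262, 232 and 233 FPKM on glucose (-1.42, SE 0.07, adjusted p = 4.94e-10).

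The wild type was also grown on bran-cellulose, a plant substrate, after the preculture of the growth protocol. Its comparisons share the wild-type GlcNAc or glucose libraries with the comparison above, so each comparison's own values are given side by side. Against wild type on bran-cellulose, 545 members were called higher on GlcNAc and 941 lower, and the tested genes as a whole were called higher in 6.53% and lower in 12.2%. Of these called members 36.7% were higher, and under median-ratio scaling, which moves the median difference by 0.18 on the log2 scale, the counts were 679 and 745 and the share was 47.7%.

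The creA level was 154 ± 11.2 FPKM on GlcNAc, 437 ± 109 FPKM on bran-cellulose and 459 ± 24.2 FPKM on glucose (SD, n = 3). That of amyR was 21.9 ± 0.818, 167 ± 14.3 and 223 ± 18.6 FPKM in the same order, and both genes were called lower on GlcNAc than in either other medium. For clrB the order was GlcNAc, glucose and bran-cellulose from low to high, at 8.17 ± 0.479, 38.1 ± 9.08 and 110 ± 7.44 FPKM. For brlA it was GlcNAc, bran-cellulose and glucose from high to low, at 445 ± 69.5, 253 ± 44.1 and 93.4 ± 52.8 FPKM, and the difference between GlcNAc and bran-cellulose was not called (0.81, adjusted p = 0.0599). The greatest rises on GlcNAc over bran-cellulose were those of PDE_02095 and PDE_01479. PDE_02095 had 1739, 1985 and 2583 FPKM on GlcNAc and was listed at 0 in 2 of 3 bran-cellulose libraries. Against glucose, where it had 296, 310 and 748 FPKM, its log2 difference of 2.34 was not called (SE 1.48, adjusted p = 0.185), though the groups did not overlap. The difference was 2.77 without glucose replicate 3 and between 2.10 and 2.77 over all libraries left out in turn. The SE draws on the spread in all 6 groups. With the compared libraries alone the limma fit called the gene (adjusted p = 0.00456). PDE_01479 had 310, 351 and 516 FPKM on GlcNAc, 0.43, 2.44 and 0.19 FPKM on bran-cellulose and 45.2, 45.8 and 251 FPKM on glucose. Its log2 difference from glucose (2.23, adjusted p = 0.0181) was 3.05 without glucose replicate 3 (adjusted p = 0.00207) and its call was lost without glucose replicate 1 (1.82), without glucose replicate 2 (1.83), without GlcNAc replicate 3 (2.02) and with a pseudocount of 0.1 FPKM (2.25). The greatest falls against bran-cellulose were those of cel7A-2 (-9.36) and of PDE_03927 (-8.15), which averaged 0.237 FPKM on GlcNAc and 348 FPKM on bran-cellulose.

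The same change of sugar in the nag3 deletion strain uses other libraries. There 1187 of the members were called higher on GlcNAc than on glucose and 1210 lower, with 15.3% of all tested genes called in each direction. Under median-ratio scaling the members' counts were 1015 and 1344, and the higher share of the calls was 43.0% in place of 49.5%. Members called higher in both strains numbered 511, which is 54.3% of the wild-type list and 43.0% of the deletion list. Members called lower in both numbered 662, which is 54.8% and 54.7% of the lists. Calls in opposite directions were made for 57 genes higher and 49 genes lower in the wild type. The genes called higher in the wild type had a median log2 difference of 1.25 in the deletion strain, and those called lower had one of -1.23.

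Whether the GlcNAc effect differed between the strains was tested directly, as the wild-type log2 difference minus that of the deletion strain. This was called higher in 878 members and lower in 1193, and over all tested genes in 11.0% and 15.3%. Median-ratio scaling moves the median of this quantity by 0.15, and the counts were then 1042 and 968. Of the 941 genes called higher in the wild type, 275 had an effect called higher, and 161 one called lower, than in the deletion strain. Of the 1207 called lower in the wild type, 405 had an effect called lower and 160 one called higher. A gene chosen by its wild-type effect is pushed to the same side here, because that effect is part of the quantity. These counts are therefore a description only.

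The falls of amyR and clrB did not differ between the strains by the test, whereas the responses of creA, amy15A and brlA did. The log2 differences of amyR were -3.29 in the wild type and -3.10 in the deletion strain (difference -0.19, SE 0.28), and those of clrB were -2.07 and -1.67 (difference -0.40, SE 0.21). The fall of creA was larger in the wild type, -1.57 against -0.42 (difference -1.15, SE 0.25, adjusted p = 0.00127), although under median-ratio scaling the difference of -1.0 was no longer called. For amy15A the signs were opposite, with -1.43 in the wild type and 1.36 in the deletion strain, where it had 239, 148 and 155 FPKM on GlcNAc and 74.0, 73.7 and 58.2 FPKM on glucose. For brlA the rise was smaller in the wild type, 2.39 against 6.15 (difference -3.76, SE 0.48, adjusted p = 1.4e-05). The deletion strain had 290, 335 and 213 FPKM of brlA on GlcNAc, all below the lowest wild-type GlcNAc library, and 1.72, 4.47 and 2.95 FPKM on glucose, far below every wild-type glucose library.

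The same held for the genes that gained most and for the longest run. PDE_09832 had a log2 difference of 1.74 in the wild type and 6.92 in the deletion strain, where it had 852, 1447 and 1127 FPKM on glucose. Of the 23 tags of the run, 22 were also called higher on GlcNAc in the deletion strain, with a median log2 difference over the 23 of 6.54. In 18 the wild-type effect was called smaller. Over all tested genes 15.3% were called higher in the deletion strain, and 15.3% had a wild-type effect called lower. The median level of the run in that strain was 129 FPKM on GlcNAc and 0.0933 FPKM on glucose. The exception, PDE_00801, had 31.4, 22.3 and 39.4 FPKM on GlcNAc in the wild type and was listed at 0 in all 3 GlcNAc libraries of the deletion strain.

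The 4 tags around PDE_00965 went the other way. In the deletion strain PDE_00965 had 34.7, 47.2 and 36.2 FPKM on GlcNAc and 15.6, 12.1 and 12.2 FPKM on glucose, a log2 difference of 1.5 against 6.39 in the wild type (difference 4.89, SE 0.17, adjusted p = 4.85e-11). PDE_00964 and PDE_00970, at 0.61 and 0.62, were not called in the deletion strain. For PDE_00969 the log2 difference was still 4.42 there, but its level on GlcNAc was 76.8 FPKM on average, against 3820 FPKM in the wild type. The run PDE_03412 to PDE_03417 had no tag called higher in the deletion strain, where its median log2 difference was -0.98. In 5 of the 6 tags the wild-type effect was called higher. The shares over all tested genes were 15.3% called higher in the deletion strain and 11.0% with a wild-type effect called higher.

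**Figure D5:**
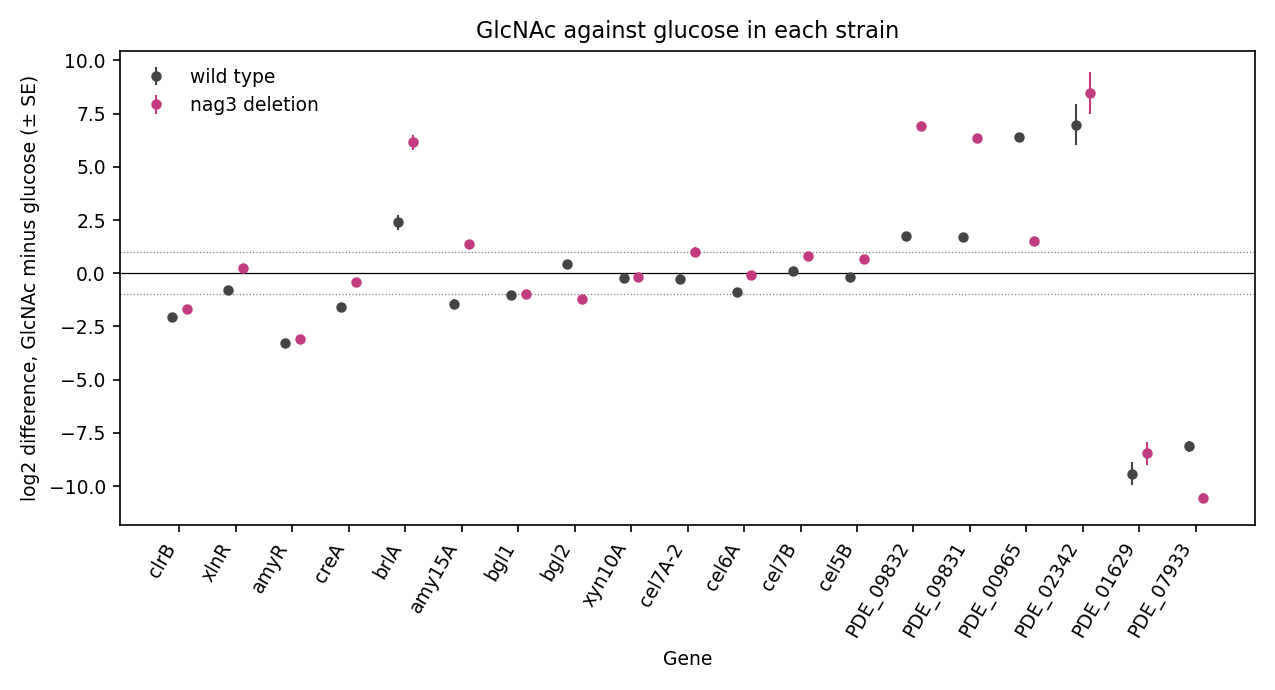
Log2 difference, GlcNAc minus glucose, of the 13 named genes and 6 identifiers in the wild type (dark, left) and in the nag3 deletion strain (pink, right), with bars of 1 SE from the fit and dotted lines at the fold threshold. The points part most for brlA, amy15A, PDE_09832, PDE_09831 and PDE_00965, and lie together for amyR and bgl1.

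The greatest differences between the strains were in genes at 0 or near it in one group. PDE_06802 had 995, 858 and 1470 FPKM on GlcNAc and 2631, 2682 and 2340 FPKM on glucose in the wild type (-1.24, adjusted p = 0.0144), and the call was lost with a pseudocount of 0.1 FPKM or without GlcNAc replicate 2. In the deletion strain it had 3.78, 0 and 2.32 FPKM on GlcNAc and 6202, 3723 and 5458 FPKM on glucose. PDE_00192 fell in the wild type, with 10.5, 1.80 and 0 FPKM on GlcNAc and 74.3, 120 and 125 FPKM on glucose (-5.04), and rose in the deletion strain (6.20). PDE_01100 was uneven in both wild-type groups, at 0, 55.7 and 0 FPKM on GlcNAc and 105, 19.0 and 101 FPKM on glucose, and was not called there (-3.97, adjusted p = 0.167).

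Among the 26 XLOC_ loci 6 (23.1%) were called higher on GlcNAc and 1 (3.85%) lower, beside 11.4% and 14.7% of all genes tested, with a median log2 difference of 0.16. The one called lower was XLOC_004037, at -2.98, named after its value had been seen.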

How the data were processed

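RNA of 18 libraries, in 6 groups of 3, was measured. Values of 15 are given above, and all enter the estimate of the spread. The authors deposited 1 table of FPKM values per identifier and library, per the file headers. The extraction protocol in the labels is one for NlaIII and MmeI tag libraries, so the use of fragments and gene length rests on the table's header alone. For aligner, build and annotation: not given in the sources used here. No read counts were used, and depth is unknown. Columns were matched to samples by name and values used as deposited, unscaled.

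A filter of 1 FPKM or more in 3 or more of the 18 libraries left 8390 genes. They were tested two-sided with limma 3.58.1 (R 4.3.3), on log2(FPKM + 1) with 6 group means, a trend in the prior and Benjamini-Hochberg adjustment over all of them. All comparisons share 1 estimate of the spread per gene. "Rose" and "fell" are used of called genes. Log2 differences understate the change of low genes. The procedure was tested on simulated data. Tables and figures used pandas 2.3.3 and matplotlib 3.10.9.

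The rule for named genes took the 13 tags and, per comparison, at most 2 identifiers in each direction: greatest log2 difference with at least 10 FPKM and no overlap, greatest change in FPKM, listed at 0, and the ends of the longest runs, plus the 2 most abundant uncalled genes. For the difference between the strains, overlap between libraries was not considered, and the 10 FPKM applied to the highest of the 4 groups. No identifiers were added for the deletion strain alone or for bran-cellulose against glucose. The genes, lists and rules were chosen with earlier results of these data known. The reference gene table is of another strain (assembly ASM172317v3), and 0 identifiers matched it.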

Additional observations from a re-analysis of the deposited data

Results flagged for a closer look

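For 22 of the 37 genes named, the effect of GlcNAc against glucose differed between the strains by the direct test (limma, Benjamini-Hochberg over 8390 genes). Over all tested genes 11.0% were called higher and 15.3% lower in this test. PDE_06802, PDE_02095, PDE_01100 and PDE_00192 were named for having the greatest such differences, so their calls follow from the choice. The other identifiers without a gene name were chosen on wild-type values, which are part of the tested quantity. The count of 22 is therefore a description and cannot be set against the shares over all tested genes. The values are log2 differences, first the wild-type effect minus the deletion effect, then each effect. No cause was tested.

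Among named genes, cel7A-2 differed by -1.28 (wild type -0.27, deletion 1.00) and bgl2 by 1.65 (0.42 and -1.23). For amy15A the difference was -2.79 (-1.43 and 1.36). It was -1.03 for xlnR (-0.77 and 0.26), -1.15 for creA (-1.57 and -0.42) and -3.76 for brlA (2.39 and 6.15). The cel7A-2 levels behind its value were under 10 FPKM in all 4 groups.

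The effect was more positive in the wild type in 8 identifiers. These were PDE_06802 at 9.72 (-1.24 and -10.96), PDE_02095 at 8.79 (2.34 and -6.45), PDE_01479 at 6.11 (2.23 and -3.88) and PDE_00965 at 4.89 (6.39 and 1.5). Smaller differences were those of PDE_07933 at 2.44 (-8.13 and -10.57), PDE_09900 at 2.39 (-0.10 and -2.48), PDE_03927 at 2.18 (-2.30 and -4.48) and PDE_08540 at 1.19 (-0.77 and -1.96).

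It was more negative in 8. PDE_01100 differed by -11.44 (-3.97 and 7.47), PDE_00192 by -11.24 (-5.04 and 6.20) and PDE_09832 by -5.18 (1.74 and 6.92). PDE_09831 differed by -4.63 (1.72 and 6.35), PDE_00811 by -4.60 (2.31 and 6.91) and PDE_00789 by -3.99 (2.54 and 6.54). PDE_01904 differed by -2.64 (5.6 and 8.24) and PDE_05450 by -1.68 (-3.23 and -1.55). PDE_02095 and PDE_01100 had standard errors of 2.09 and 3.41, the widest of these genes.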

How the results depend on the processing

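The counts of called members stayed within 1.5 times under each alternative but one: with the adjusted p at any fold they were 2558 higher and 2600 lower, and for the difference between the strains 1545 and 2458. Leaving out each library in turn gave 817 to 1082 higher and 1139 to 1260 lower, and 827 to 935 and 1158 to 1280 for the difference between the strains. Same-numbered GlcNAc and glucose libraries did not deviate together (correlations -0.02, -0.05 and -0.05). These values cannot show whether libraries of the same number were grown or processed together. A fit with a replicate block gave 941 and 1210, and 881 and 1196 for the difference. Other scalings, filters, pseudocounts, array weights and sets of libraries gave 901 to 1036 higher and 1095 to 1288 lower. Of 778 settings over the 37 genes named in the comparison, 756 kept direction and side of the threshold, 18 lost the call and 4 gained it. With PDE_09832 left out, the shares of the 10 and 100 highest genes overlapped between the media. That setting, and the medians and neighbour shares without glucose replicate 3, were chosen after seeing the data. PDE_09832 is the highest gene in both media, so quantile normalization sets its difference to 0.00. PDE_02095 was called with array weights (2.61) and with the compared libraries alone (2.34). For xlnR the difference between the strains was lost in 6 settings (-0.86 to -0.97). The number of libraries and the unknown depth limit what can be said of low genes.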

Other observations

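An identifier outside the members, PDE_05418, had 2735.85 FPKM in GlcNAc replicate 1 of the wild type and was listed at 0 in the other 17 libraries of the table. No other identifier had at least 50 FPKM in 1 library and 0 in all the rest. PDE_05823, also outside the members, had 59.1 and 36.6 FPKM in glucose replicates 1 and 2 and was listed at 0 in glucose replicate 3 and in all 3 GlcNAc libraries.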
